A study of Drosophila melanogaster with 8 samples.

Results

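The libraries labelled TDP-43 GOF (gain of function) are 2 of the 8 in the series and were taken by their titles, with all genes of the count files. Their genotype, act5c>dTDP-43, puts the fly TDP-43 gene TBPH under a driver made from the promoter of the actin gene Act5C, which is active in most cells of the fly. They were set against 2 wild-type libraries, titled with both Canton S and w1118 but given as w1118 alone in the genotype field, so the stock behind each wild-type library cannot be told from the labels. Beside them stand 4 loss-of-function (LOF) libraries, 2 of the deletion dTDP-43Δ142 over the deficiency Df(2R)106 and 2 of the deletions Δ23 and Δ142 together. All 8 were made from the same material by their labels, total RNA of 150 late pupal heads per library at 73 to 90 hours after puparium formation, with ribosomal RNA removed. No library with the driver alone or the transgene alone was analysed here, so an effect of TBPH, of the driver, of the insertion and of the strain cannot be told apart.

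TDP-43 is a nuclear RNA-binding protein that controls splicing, stability and transport of its target RNAs. It leaves the nucleus and forms aggregates in neurons of patients with amyotrophic lateral sclerosis and frontotemporal dementia, and TBPH is its fly homolog. Both loss and excess of TBPH impair movement in flies. In the late pupa the head builds its adult eyes, muscles and cuticle, and genes for cuticle and for the response to the moulting hormone ecdysone switch on and off within hours.

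The files list 15141 genes. Total counts were 1225179 and 1105353 in the libraries labelled GOF, 858067 to 1302855 in the libraries labelled LOF, and 868003 and 716027 in wild type. Levels are given as CPM, counts scaled to a common library size with TMM factors, and 3 counts correspond to 2.43 and 2.77 CPM in the libraries labelled GOF and to 3.47 and 4.29 CPM in wild type. In all, 9252 genes had enough counts to be tested. A gene counts as called where edgeR's quasi-likelihood test, with Benjamini-Hochberg adjustment over these genes, gave a p under 0.05. On the first principal component of log2 CPM, which held 35.4% of the variance, wild type lay at 42.4 and 46.8 and the other 6 libraries lay between -24.5 and -1.53. The libraries labelled GOF were at -23.9 and -12.2.

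The head label was checked against marker genes. Nerve cell markers were present, with elav at 106 and 131 CPM in the libraries labelled GOF and 101 and 87.1 CPM in wild type. Photoreceptor opsins were scarce: ninaE, the main rhodopsin gene, had 1 and 3 counts in the libraries labelled GOF, 9 to 72 in the libraries labelled LOF, and 24 and 7 in wild type, and Rh3, Rh4 and Rh6 were at 0 in at least 1 library. Genes that pattern the trunk and not the head were present in every library. The Hox genes Antp, Ubx, abd-A and Abd-B together had 357 and 271 CPM in the libraries labelled GOF, 195 to 313 CPM in the libraries labelled LOF, and 273 and 261 CPM in wild type, and none of the 4 was called. A list of 33 tested testis-biased genes, chosen after their values were seen, had 1111 and 1936 CPM in the libraries labelled GOF. It had 868 to 2070 CPM in the libraries labelled LOF and 2845 and 2973 CPM in wild type. Whether tissue other than the head entered the libraries is not given by the labels, and its part in the results was not tested.

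TBPH itself was not higher in the libraries labelled GOF. It had 68 and 42 counts in them, or 55.1 and 38.8 CPM, against 43 and 40 counts, or 49.8 and 57.1 CPM, in wild type (log2 fold -0.18 with an SE of 0.30, adjusted p = 0.794, 95% interval -0.83 to 0.48). Replicate 1 lay between the wild-type libraries and replicate 2 below both. The libraries labelled LOF were at 30.8 to 49.4 CPM, or 28 to 57 counts, so reads at TBPH were not lost in the deletion genotypes either. All of the libraries labelled LOF lay below both wild-type libraries, and that difference was not tested. The counts at TBPH alone can therefore neither bear out nor refute the labels. The sources used here say neither whether reads of the transgene could be counted at TBPH nor which part of the gene the deletions remove. For this reason the libraries are called by their label throughout, and every direction below is a direction in libraries so labelled.

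Of 7 other genes linked to TDP-43 in the literature on flies, 1 was called, against 3.11% of all genes. The list was chosen with earlier results of these data known, so the call is no independent support for a link. Map205, which encodes a microtubule-associated protein, had 648 and 756 counts in the libraries labelled GOF, 539 to 872 in the libraries labelled LOF, and 6 and 3 in wild type (log2 fold 6.71 with an SE of 0.31, adjusted p = 3.6e-07). All 6 libraries with a TBPH genotype were far above both wild-type libraries. The ecdysone receptor gene EcR averaged 437 ± 23 CPM in the libraries labelled GOF and 336 ± 2.97 CPM in wild type (SD, n = 2 each), and the groups did not overlap, as for 49.3% of all genes tested, but it was not called (log2 fold 0.38, adjusted p = 0.227). futsch, the fly MAP1B gene and a known target of TDP-43 in translation, was at 567 and 430.0 CPM in the libraries labelled GOF and 582 and 673 CPM in wild type (log2 fold -0.33, adjusted p = 0.451). The presynaptic calcium channel gene cac was at 89.2 and 163 CPM in the libraries labelled GOF and 193 and 176 CPM in wild type (log2 fold -0.56, adjusted p = 0.234), and its lower value was that of replicate 1. Gad1, which encodes the enzyme that makes GABA, was at 34.1 and 25.9 CPM in the libraries labelled GOF and 35.9 and 74.3 CPM in wild type (log2 fold -0.85, adjusted p = 0.273). For HDAC6, which deacetylates tubulin, the log2 fold was -0.37 (adjusted p = 0.343), and for the syntaxin gene Syx1A it was 0.07 (adjusted p = 0.892).

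**Figure D1:**
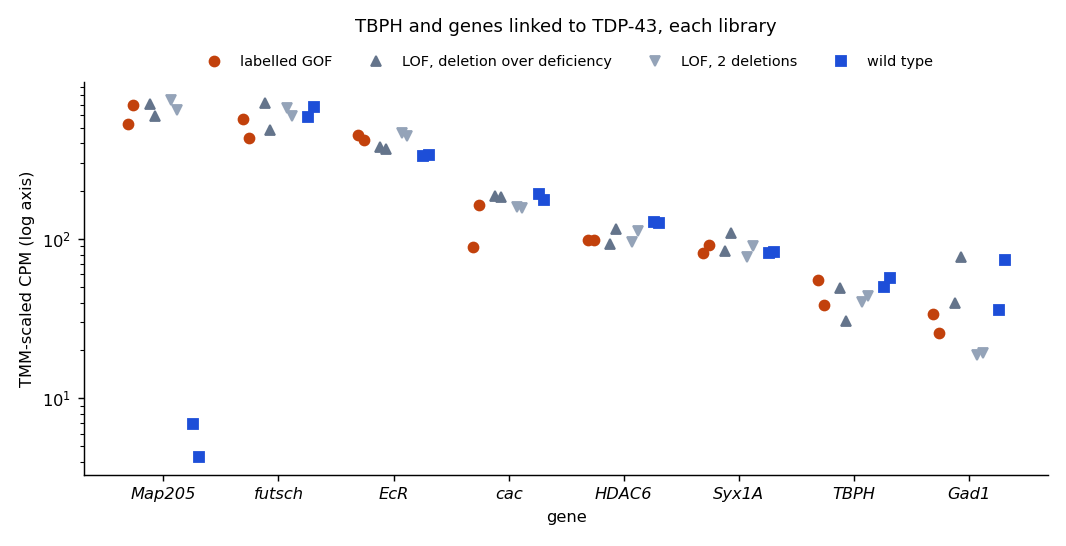
CPM of TBPH and 7 linked genes on a log axis, 1 point per library, with the libraries labelled GOF left, the LOF genotypes in the middle and wild type right for each gene. Map205 is at 526 and 699 CPM in the libraries labelled GOF, 593 to 745 CPM in the libraries labelled LOF and 6.94 and 4.29 CPM in wild type, while the TBPH points of the libraries labelled GOF and of wild type overlap.

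Against wild type, 85 genes were called higher and 203 lower in the libraries labelled GOF, which is 0.919% and 2.19% of the genes tested and 3.11% together. At an unadjusted p under 0.05 there were 791 higher (8.55%) and 1015 lower, or 19.5% together. Over all genes tested the median log2 fold was 0.01 and 49% were negative. In all 85 called rises and all 203 called falls the libraries labelled GOF did not overlap wild type, as in 49.3% of all genes tested. A lack of overlap is therefore no added support for a called gene. Called falls had a median of 44.5 CPM in the libraries labelled GOF and 122 CPM in wild type, and called rises had a median of 105 CPM in the libraries labelled GOF and 33.6 CPM in wild type. GOF replicate 1 lay farther from wild type than replicate 2 in 147 of the 203 falls and in 50 of the 85 rises. The same share over all genes was not computed. Across all genes tested replicate 1 also had the lower Spearman correlation with the wild-type libraries, 0.866 and 0.861, against 0.896 and 0.886 for replicate 2. The counts are therefore no trait of the called genes alone. The counts rested on single libraries: without GOF replicate 1 there were 126 rises and 141 falls, without GOF replicate 2 200 and 457, without wild-type replicate 1 7 and 35, and without wild-type replicate 2 3 and 0. Without a library of the deficiency genotype there were 129 or 131 rises and at most 290 falls, and without one of the 2-deletion genotype 45 or 52 rises and 102 or 110 falls. Of the 70 named genes that were called, 50 lost the call without wild-type replicate 1 and 68 without wild-type replicate 2, where 1 library stands for wild type. Map205 and snoRNA:Psi18S-640f were called without each of the 8 libraries.

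**Figure D2:**
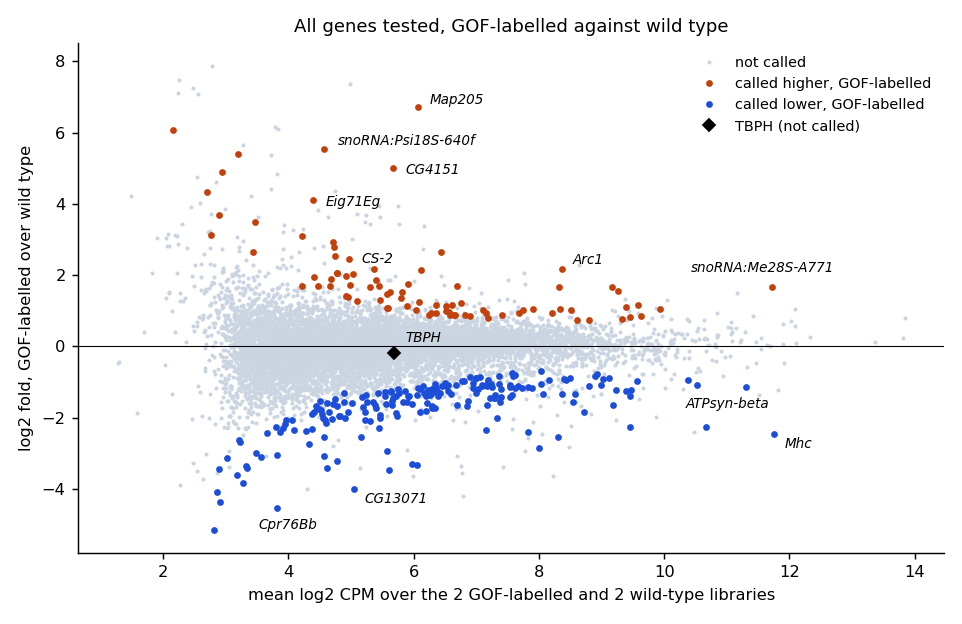
Log2 fold of the libraries labelled GOF over wild type against the mean log2 CPM of those 4 libraries, 1 point per gene tested, with called genes in colour. Called falls outnumber called rises by 203 to 85, Map205 stands at 6.71, and TBPH lies at -0.18 among the genes not called.

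Many muscle genes fell. Of 41 tested genes for the contractile filaments, the Z-disc and calcium handling in muscle, 20 were called lower and 0 higher, against 2.19% of all genes called lower, and 39 had a negative fold. Their median log2 fold was -1.55, against 0.01 for all genes tested. Mhc, which encodes the muscle myosin heavy chain, had 874 and 2272 CPM in the libraries labelled GOF and 6783 and 10485 CPM in wild type (log2 fold -2.46 with an SE of 0.45, adjusted p = 0.0295). Both libraries labelled GOF were below both wild-type libraries, and replicate 1 was the lower of the 2. The myosin light chain genes fell too, Mlc1 with a log2 fold of -2.55 (adjusted p = 0.0341) and Mlc2 of -2.25 (adjusted p = 0.0396). Called members of a list that are given here and below only by their folds were picked after their values were seen. The same holds for up, Eip93F, snoRNA:Me28S-A771 and snoRNA:Me28S-G764, which are given with their levels. In the thin filament, the troponin T gene up had 210.0 and 461 CPM in the libraries labelled GOF and 1216 and 2029 CPM in wild type (log2 fold -2.28 with an SE of 0.39, adjusted p = 0.0263). The tropomyosin genes Tm1 and Tm2 fell with log2 folds of -1.25 and -2.39, and the troponin C genes TpnC25D, TpnC41C and TpnC47D with log2 folds of -2.99, -2.35 and -3.37. Among genes for calcium handling, Rya-r44F, the ryanodine receptor that releases calcium from the reticulum, had 183 and 252 CPM in the libraries labelled GOF and 596 and 681 CPM in wild type (log2 fold -1.55 with an SE of 0.21, adjusted p = 0.00671). Ca-P60A, the pump that returns calcium to it, had a log2 fold of -1.39 (adjusted p = 0.0103). In the Z-disc and the elastic filaments, Mlp84B (log2 fold -1.81, adjusted p = 0.00738), Unc-89 (log2 fold -1.85, adjusted p = 0.0364), sls, the titin gene (log2 fold -1.13, adjusted p = 0.0197), and Actn (log2 fold -0.91, adjusted p = 0.0263) fell. The actin genes Act57B, Act79B, Act87E and Act88F had log2 folds of -1.57, -2.47, -1.94 and -1.91 and were not called.

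Summed over the list, muscle transcripts made up 12933 and 19833 CPM in the libraries labelled GOF and 37628 and 49492 CPM in wild type. The libraries labelled LOF had 19667 to 34245 CPM, also below both wild-type libraries, so a lower level was not particular to the label GOF. In whole heads, fewer cells of a type and less RNA per cell cannot be told apart. The 3 tested genes of the indirect flight muscle, which lies in the thorax, were also low: Act88F had 122 and 385 CPM in the libraries labelled GOF and 809.9 and 1087 CPM in wild type. fln, which encodes flightin, had 21.1 and 99.9 CPM in the libraries labelled GOF and 229 and 297 CPM in wild type, and neither it nor TpnC4 was called (adjusted p = 0.168 and 0.0758). The part of thorax tissue in the fall of the list was not tested. The number of muscle genes called lower was 17 without GOF replicate 1, 31 without GOF replicate 2, 9 without wild-type replicate 1, 0 without wild-type replicate 2 and 13 without 2-deletion replicate 1. The median log2 fold of the list kept its sign, at -1.19, -2.07, -1.70 and -1.35 without GOF replicate 1, GOF replicate 2, wild-type replicate 1 and wild-type replicate 2.

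Genes of mitochondrial energy production fell as well. Of 73 tested nuclear genes for the respiratory chain and the ATP synthase, 33 were called lower and 0 higher, against 2.19% of all genes called lower, and 72 had a negative fold, against 49% of all genes. The median was -1.22, and the summed level was 3493 and 4566 CPM in the libraries labelled GOF and 8146 and 9906 CPM in wild type. The libraries labelled LOF had 4818 to 6340 CPM, also below both wild-type libraries. By complex, 12 of 33 tested genes of complex I (NADH dehydrogenase) were called lower, 1 of 4 of complex II, 5 of 7 of complex III, 5 of 13 of complex IV and 10 of 14 of the ATP synthase, with medians of -1.25, -1.12, -1.32, -0.97 and -1.22. In complex I, ND42 had 43 and 40.7 CPM in the libraries labelled GOF and 135 and 141 CPM in wild type (log2 fold -1.72 with an SE of 0.23, adjusted p = 0.00671). The 2 libraries of each genotype were close together. In complex III, CG3731 (UQCR-C1, a core subunit) had 119 and 116 CPM in the libraries labelled GOF and 286 and 317 CPM in wild type (log2 fold -1.36 with an SE of 0.20, adjusted p = 0.00971). ATPsyn-beta, the catalytic subunit of the ATP synthase and the most abundant transcript of the list, had 865 and 1169 CPM in the libraries labelled GOF and 1874 and 2437 CPM in wild type (log2 fold -1.08 with an SE of 0.22, adjusted p = 0.0255). Between the replicates labelled GOF, 4 of the 43 members with at least 50 counts over the pair differed by 2-fold, near the share of 8.08% over all genes.

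Upstream of the chain, 7 of 39 tested genes of glycolysis and the TCA cycle were called lower and 0 higher, against 2.19% of all genes called lower, with a median of -0.74. Acon, which encodes mitochondrial aconitase, had 217 and 259.9 CPM in the libraries labelled GOF and 566 and 639 CPM in wild type (log2 fold -1.34 with an SE of 0.18, adjusted p = 0.00671). CG7998 (Mdh2, mitochondrial malate dehydrogenase; log2 fold -1.14), the isocitrate and pyruvate dehydrogenase subunit genes l(1)G0156 (-1.10) and l(1)G0334 (-1.17), and the glycolytic genes Gapdh1 (-1.11), Gapdh2 (-0.95) and Pglym78 (-1.38) completed the 7. Genes of the mitochondrial ribosome leaned the same way without passing the test: 54 of 57 had a negative fold, against 49% of all genes, and the median was -0.91. Of them mRpL37 alone was called (log2 fold -2.08 with an SE of 0.34, adjusted p = 0.0116). Of 84 tested cytosolic ribosomal protein genes, RpLP2, RpL30, RpL23A and oho23B (RpS21) were called lower, at log2 folds of -1.10, -0.99, -0.83 and -0.98. The share of all genes called lower was 2.19%, and the median of the list was -0.32. Without GOF replicate 1, GOF replicate 2, wild-type replicate 1 and wild-type replicate 2, the respiratory list had 15, 36, 7 and 0 calls, all lower, and the glycolysis and TCA list 3, 20, 2 and 0. Without 2-deletion replicates 1 and 2 the respiratory list had 20 and 21 calls and the glycolysis and TCA list 2 and 3, and DESeq2 gave 21 for the respiratory list. The cytosolic ribosomal list had 10 calls without GOF replicate 1 and 0 without either wild-type or either 2-deletion library.

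Genes of the eye for phototransduction, rhabdomere structure and chromophore supply leaned lower, while the eye pigment genes as a list did not. Of 33 tested genes for phototransduction and the rhabdomere, the membrane stack that holds rhodopsin, 7 were called lower and 0 higher, against 2.19% of all genes called lower, with a median of -0.99. eys, which opens the space between rhabdomeres, had 75 and 112 counts in the libraries labelled GOF and 230 and 171 counts in wild type (log2 fold -1.64 with an SE of 0.24, adjusted p = 0.00971). inaC, the eye protein kinase C, had 17 and 19.4 CPM in the libraries labelled GOF and 92.6 and 61.4 CPM in wild type (log2 fold -2.08 with an SE of 0.33, adjusted p = 0.0116). The myosin-kinase gene ninaC (log2 fold -2.01, adjusted p = 0.036) and CG42310 (prom, prominin; log2 fold -2.14, adjusted p = 0.0197) also fell. In all, 3 steps of chromophore supply were called: ninaD, a receptor for carotenoid uptake (log2 fold -2.35, adjusted p = 0.0391), ninaB, the enzyme that cleaves carotenoids (log2 fold -3.44, adjusted p = 0.0286), and Pdh, a retinoid dehydrogenase. Pdh had 8.92 and 35.1 CPM in the libraries labelled GOF and 234 and 201 CPM in wild type (log2 fold -3.33 with an SE of 0.53, adjusted p = 0.0257), and GOF replicate 1 was again the lower. norpA, the phospholipase C gene of the cascade (log2 fold -0.03, adjusted p = 0.959), and Cam, the calmodulin gene (log2 fold -0.41, adjusted p = 0.239), were not called.

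The 9 photoreceptor markers had 298 and 469 summed CPM in the libraries labelled GOF, 477 to 1130.2 in the libraries labelled LOF, and 1219 and 934 in wild type, with ninaC the only one called. How far a smaller share of eye tissue enters these falls was not tested. Of 26 tested eye pigment genes 2 were called, both lower, against 2.19% of all genes called lower. In this list 14 had a positive fold and 12 a negative one, and the median was 0.09. bw, a transporter for red pigment precursors, had 12.2 and 20.3 CPM in the libraries labelled GOF and 49.8 and 45.7 CPM in wild type (log2 fold -1.56, adjusted p = 0.0319). se, an enzyme of the red pigment pathway, had 2 and 0 counts in the libraries labelled GOF and 11 and 20 in wild type, a pooled ratio of wild type over GOF of 22.9 (95% interval 5.83 to 198). Without GOF replicate 1, GOF replicate 2, wild-type replicate 1 and wild-type replicate 2, 4, 9, 0 and 0 genes of the phototransduction list were called lower, and the number was 11 without either deficiency library and 3 and 4 without 2-deletion replicates 1 and 2.

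Calls among genes of nerve cells and synapses differed by list, beside 3.11% of all genes called, 0.919% higher and 2.19% lower. None of 35 tested genes of synaptic vesicle release and none of 19 neuropeptide genes was called, with medians of -0.19 and -0.01. unc-13, which primes vesicles for release, had 769 and 724 CPM in the libraries labelled GOF and 871 and 864 CPM in wild type (log2 fold -0.22, adjusted p = 0.543). Of 33 tested voltage-gated channel genes 3 were called lower, against 2.19% of all genes. slo, the calcium-activated potassium channel, had 105 and 117 CPM in the libraries labelled GOF and 249 and 254 CPM in wild type (log2 fold -1.19 with an SE of 0.18, adjusted p = 0.00993). para, the sodium channel of the action potential, had 44.6 and 53.6 CPM in the libraries labelled GOF and 124 and 117 CPM in wild type (log2 fold -1.30 with an SE of 0.21, adjusted p = 0.012), and the L-type calcium channel gene Ca-alpha1D followed (log2 fold -0.98, adjusted p = 0.0474). In transmitter handling 1 of 23 genes was called: CG1732 (Gat), which takes up GABA into glia, had 28 and 33 counts in the libraries labelled GOF and 81 and 70 counts in wild type (log2 fold -1.86 with an SE of 0.29, adjusted p = 0.0103). Of 20 neuron markers, para and nrv3, a subunit of the sodium pump (log2 fold -1.46, adjusted p = 0.00738), were called lower, and of 23 glia markers CG1732 and BM-40-SPARC (log2 fold -1.03, adjusted p = 0.0308). The 5 neuron markers used to check the tissue had 461 and 702 summed CPM in the libraries labelled GOF and 701 and 724 in wild type, and the 5 tested glia markers 461 and 487 in the libraries labelled GOF and 486 and 493 in wild type. Without either wild-type library 0 channel, glia marker and transmitter genes were called, and without wild-type replicates 1 and 2 there were 1 and 0 neuron markers. Without GOF replicate 2 the calls, all lower, were 6 channel genes, 4 of synaptic vesicle release, 7 neuron markers, 4 glia markers and 4 transmitter genes. In the fit without GOF replicate 1, 1 neuropeptide gene and 1 glia marker were called higher.

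Chemosensory genes were mostly too low to test: 10 of 52 odorant-binding protein genes and 8 of 184 receptor genes passed the filter. Obp99c had 215 and 201 CPM in the libraries labelled GOF and 481 and 569 CPM in wild type (log2 fold -1.34 with an SE of 0.18, adjusted p = 0.00671). Or47a, an odorant receptor gene, had 5 and 12 counts in the libraries labelled GOF and 64 and 36 in wild type (log2 fold -3.07 with an SE of 0.42, adjusted p = 0.00671). Both were lower in both libraries labelled GOF.

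Cuticle protein genes went in both directions. Of 130 listed genes 64 could be tested, 5 were called lower and 2 higher, against 2.19% and 0.919% of all genes, and the median was -0.77. Cpr76Bb had 0 and 5 counts in the libraries labelled GOF and 38 and 44 in wild type (log2 fold -4.53 with an SE of 0.69, adjusted p = 0.0116). Cpr49Aa (log2 fold -3.21, adjusted p = 0.0383), Cpr47Ea (log2 fold -2.94, adjusted p = 0.0474), Acp1 (log2 fold -3.61, adjusted p = 0.0367) and Cpr62Bb (log2 fold -1.84, adjusted p = 0.0308) also fell. On the other side, Cpr78E had 85.2 and 74 CPM in the libraries labelled GOF and 25.5 and 30.0 CPM in wild type (log2 fold 1.52 with an SE of 0.27, adjusted p = 0.0179), and Edg91 had 61 and 69 counts in the libraries labelled GOF and 8 and 14 counts in wild type (log2 fold 1.98 with an SE of 0.42, adjusted p = 0.0309). The abundant CG16886 (Vajk1) had 1253 and 2784 CPM in the libraries labelled GOF and 3008 and 1910.0 CPM in wild type, and the groups overlapped (log2 fold -0.29, adjusted p = 0.748). The number called lower was 12 without GOF replicate 1, 25 without GOF replicate 2, 2 without wild-type replicate 1, 0 without wild-type replicate 2, 2 without either 2-deletion library and 15 by DESeq2.

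Genes that build chitin, the polysaccharide of the cuticle, had a median of 0.03 over 37 tested, and 1 was called, against 3.11% of all genes. CS-2 (Chs2), a chitin synthase, had 64.9 and 68.4 CPM in the libraries labelled GOF, 18.6 to 38.5 CPM in the libraries labelled LOF, and 10.4 and 14.3 CPM in wild type (log2 fold 2.44 with an SE of 0.38, adjusted p = 0.0104). The epidermal chitin synthase kkv had a log2 fold of 0.19 (adjusted p = 0.636). In the Osiris family, insect proteins of epidermal cells that secrete cuticle, Osi18 and Osi19 were called lower of 19 tested, against 2.19% of all genes, with a median of -1.33. Osi18 had 17.8 and 12 CPM in the libraries labelled GOF and 72.9 and 270.0 CPM in wild type (log2 fold -3.48 with an SE of 0.65, adjusted p = 0.0443), and its 2 wild-type libraries themselves differed widely. The Osiris list had 4 calls without wild-type replicate 1, 5 and 4 without deficiency replicates 1 and 2, and 0 without any of the other 5 libraries. Of 20 tanning and melanin genes only yellow-b was called (log2 fold -1.95 with an SE of 0.37, adjusted p = 0.0211), and without GOF replicate 2 there were 5 called, all lower. Without either wild-type library no chitin or tanning gene was called, and 3 chitin genes were called higher without either library labelled GOF, with 2 lower without replicate 2.

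Ecdysone-response genes leaned upwards. Of 49 tested, 3 were called higher and 0 lower, against 0.919% of all genes called higher. In this list 36 had a positive fold and 13 a negative one, against 49% negative over all genes, and the median was 0.48. Eig71Eg, of a cluster of late puff genes, had 105 and 76 counts in the libraries labelled GOF, 55 to 307 in the libraries labelled LOF, and 6 and 1 in wild type (log2 fold 4.09 with an SE of 0.63, adjusted p = 0.0197). Cyp18a1, which inactivates ecdysteroids, had 81.1 and 52.7 CPM in the libraries labelled GOF and 20.8 and 21.4 CPM in wild type (log2 fold 1.66 with an SE of 0.31, adjusted p = 0.0204). Eip93F, a transcription factor gene of the adult fate, had 980.5 and 1136 CPM in the libraries labelled GOF and 579 and 601 CPM in wild type (log2 fold 0.84 with an SE of 0.20, adjusted p = 0.0417). Other members of the Eig71E cluster were high without a call, such as Eig71Ef with 216 and 168 counts in the libraries labelled GOF and 13 and 4 in wild type (adjusted p = 0.07). Reads may be shared among these neighbouring genes. The early response genes Eip74EF and Eip75B were not called (log2 fold -0.15, adjusted p = 0.727 for Eip74EF, and log2 fold -0.23, adjusted p = 0.558 for Eip75B). Without GOF replicate 1, GOF replicate 2, wild-type replicate 1 and wild-type replicate 2 the numbers called higher were 3, 2, 1 and 0, and without GOF replicate 2 a further 2 were called lower. Without either deficiency library 6 were called higher, and 9 by DESeq2.

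Cell cycle and neuroblast genes had the highest median of the protein-coding lists from the design with over 10 tested genes, 0.67 over 42. Of them 39 had a positive fold and 3 a negative one, against 49% negative over all genes. In all, 3 were called higher, against 0.919% of all genes. Klp61F, a motor of the mitotic spindle (log2 fold 1.31 with an SE of 0.29, adjusted p = 0.0341), sti, the citron kinase of cytokinesis (log2 fold 1.13 with an SE of 0.26, adjusted p = 0.0391), and brat, a translational repressor in neural stem cells, were called higher. brat had 592 and 549 CPM in the libraries labelled GOF and 341 and 347 CPM in wild type (log2 fold 0.73 with an SE of 0.17, adjusted p = 0.0413), and it was also the only gene called of 58 tested genes for RNA-binding proteins (median 0.16). The summed level of the cell cycle list was 3141 and 2600.4 CPM in the libraries labelled GOF and 1696 and 1993 CPM in wild type. It had 0, 6, 0 and 0 genes called higher without GOF replicate 1, GOF replicate 2, wild-type replicate 1 and wild-type replicate 2, 0 and 1 without 2-deletion replicates 1 and 2, and 0 by DESeq2.

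Calls among storage, immune and stress genes also differed by list, beside 0.919% of all genes called higher and 2.19% lower. Lsd-1 and Lsd-2, which coat lipid droplets, were called higher among 15 fat body genes, at 186 and 204 CPM for Lsd-1 in the libraries labelled GOF and 109.9 and 94.3 CPM in wild type (log2 fold 0.93, adjusted p = 0.0253), and at 457 and 549 CPM for Lsd-2 in the libraries labelled GOF and 304 and 293 CPM in wild type (log2 fold 0.75, adjusted p = 0.0391). The 9 fat body markers, mostly storage proteins, had 21648 and 33645 summed CPM in the libraries labelled GOF and 17456 and 15393 in wild type, and the part of fat body tissue in these rises was not tested. Dpt, which encodes the antibacterial peptide diptericin, had 80.3 and 44.4 CPM in the libraries labelled GOF and 15 and 15.7 CPM in wild type (log2 fold 2.02 with an SE of 0.39, adjusted p = 0.0225) and was the 1 call among 34 immunity genes. Of 43 heat shock and stress genes, Hsp67Bc was called higher (log2 fold 0.88, adjusted p = 0.0474), and GstS1 (log2 fold -0.90, adjusted p = 0.0288), the mitochondrial chaperonin gene Hsp60 (log2 fold -0.82, adjusted p = 0.0341) and Hsc70-1 (log2 fold -2.55, adjusted p = 0.0464) lower. No gene was called among 14 for cell death, 24 for autophagy and lysosomes, 39 for the proteasome and 15 of the circadian clock, with medians of 0.38, 0.21, 0.07 and 0.19. Leaving out GOF replicate 1, 4 fat body, 3 stress and 2 proteasome genes were called higher. Without GOF replicate 2, 3 stress, 3 immune and 2 cell death genes were called higher. Without either wild-type library no fat body, immune or stress gene was called, and without either 2-deletion library no stress gene.

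For each list in this paragraph the shares over all genes are 0.919% called higher and 2.19% lower. Of 32 tested microtubule genes, 1 beside Map205 was called: betaTub85D, the tubulin of the testis, was lower (log2 fold -1.05, adjusted p = 0.042), and the median of the list was -0.07. Of 11 haemocyte genes Ppn, a matrix protein gene, was called lower (log2 fold -0.78, adjusted p = 0.0476). A list of 18 basement membrane genes, chosen after their values were seen, held Ppn, BM-40-SPARC, LanB2 (log2 fold -0.82, adjusted p = 0.0288), Ndg (log2 fold -1.15, adjusted p = 0.0179) and prc (log2 fold -1.16, adjusted p = 0.0273) as called falls and no called rise. Of the 33 testis-biased genes, likewise chosen after their values were seen, 5 were called lower and 30 had a negative fold, with a median of -0.88. Over all genes 2.19% were called lower and 49% had a negative fold. These 5 were betaTub85D, CG34172 (log2 fold -2.73, adjusted p = 0.0197), CG4810 (log2 fold -1.77, adjusted p = 0.0253), CG6372 (log2 fold -1.17, adjusted p = 0.0179) and ran-like (log2 fold -2.19, adjusted p = 0.0374). Without GOF replicate 1, GOF replicate 2, wild-type replicate 1 and wild-type replicate 2 the testis-biased list had 2, 12, 0 and 0 calls, and the basement membrane list 3, 5, 0 and 0. Without either 2-deletion library the testis-biased list had 3 calls and the basement membrane list 2, and DESeq2 gave 2 and 1. betaTub85D was not called without GOF replicate 1, either wild-type or either 2-deletion library. The share of males among the pooled pupae is not given by the labels, and its part in these falls was not tested.

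**Figure D3:**
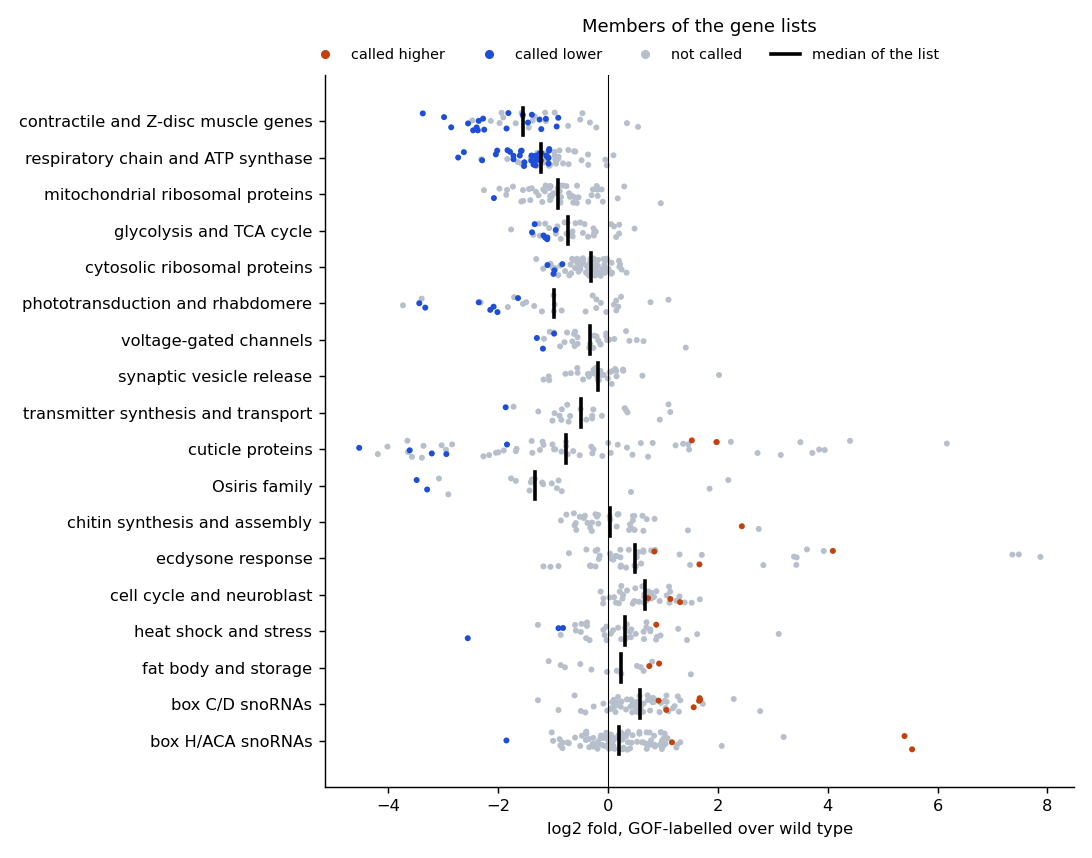
Log2 folds of the tested members of 18 gene lists, the libraries labelled GOF over wild type, 1 point per gene with called genes in colour and black bars at the list medians. The muscle and respiratory lists lie left of 0 with medians of -1.55 and -1.22, the cell cycle and box C/D snoRNA lists right of it with 0.67 and 0.58, and cuticle genes lie on both sides of 0 with 5 called lower and 2 higher.

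Small nucleolar RNAs (snoRNAs) guide chemical modification of ribosomal RNA. Of 200 tested in all, 9 were called higher and 2 lower, against 0.919% and 2.19% of all genes. One of the falls, snoRNA:185, was in neither of the class lists below (log2 fold -1.655, edgeR adjusted p = 0.00671). The others are given by class. Of 65 tested box C/D genes, which guide methylation, 6 were called higher and 0 lower, against 0.919% of all genes called higher, and 8 had a negative fold, against 49% of all genes (median 0.58). snoRNA:Me28S-A771 had 7221 and 4933 CPM in the libraries labelled GOF and 1792 and 2013 CPM in wild type (log2 fold 1.68 with an SE of 0.37, adjusted p = 0.0391). snoRNA:Me28S-G764 had 615 and 532 CPM in the libraries labelled GOF and 215 and 147 CPM in wild type (log2 fold 1.66 with an SE of 0.29, adjusted p = 0.0197). Of 100 box H/ACA genes, which guide pseudouridylation, 3 were called higher and 1 lower, against 0.919% and 2.19% of all genes (median 0.19). snoRNA:Psi18S-640f had 137 and 150 counts in the libraries labelled GOF, 107 to 201 in the libraries labelled LOF, and 1 and 3 in wild type (log2 fold 5.54 with an SE of 0.55, adjusted p = 0.00395). The counts of snoRNA:Psi18S-525i were 39 and 35 in the libraries labelled GOF and 1 and 0 in wild type, a pooled ratio of GOF over wild type of 50.1 (95% interval 8.71 to 2004). A gene of the same subfamily by name, snoRNA:Psi18S-525c, fell to 50.3 and 22.2 CPM in the libraries labelled GOF, against 118 and 147 CPM in wild type (log2 fold -1.85 with an SE of 0.40, adjusted p = 0.0364). Copies of a snoRNA may share reads, and short RNAs enter a library by how it was prepared: small RNA genes took 13.4% and 14.5% of the counts in the libraries labelled GOF and 10.6% and 11.9% in wild type, and the part of this share was not tested. Without GOF replicate 1, GOF replicate 2, wild-type replicate 1 and wild-type replicate 2, 10, 7, 1 and 0 box C/D genes were called higher. Under the same omissions 11, 5, 2 and 1 box H/ACA genes were called higher and 4, 1, 0 and 0 lower, and the H/ACA median without GOF replicate 2 was 0.01. Without either 2-deletion library 0 box H/ACA genes were called lower, and without deficiency replicates 1 and 2 the numbers were 5 higher in both and 2 and 3 lower.

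Many of the largest called changes were of genes known only by number. CG4151 was called higher, with 214 and 320.0 CPM in the libraries labelled GOF and 10.4 and 5.71 CPM in wild type (log2 fold 4.99 with an SE of 0.58, adjusted p = 0.0123). CG3355, CG15202 and CG8539 rose with log2 folds of 2.64, 2.78 and 2.16 (adjusted p = 0.015, 0.00756 and 0.00971). CG12224 (log2 fold 3.48, adjusted p = 0.0263) and CG12481 (log2 fold 3.09, adjusted p = 0.0391) were higher in both libraries labelled GOF, with 52 and 18 counts for CG12224 and 93 and 26 for CG12481 in replicates 1 and 2. Arc1, whose protein forms virus-like shells that carry its own RNA across synapses, had 566 and 834 CPM in the libraries labelled GOF and 169 and 143 CPM in wild type (log2 fold 2.16 with an SE of 0.26, adjusted p = 0.00459). Among the steepest falls were CG13071, with 3 and 15 counts in the libraries labelled GOF and 112 and 89 in wild type (log2 fold -4.01 with an SE of 0.47, adjusted p = 0.00512), and CG15021, with 6 and 9 counts in the libraries labelled GOF and 50 and 60 in wild type (log2 fold -3.43 with an SE of 0.40, adjusted p = 0.00459).

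Some called genes outside the lists are named here after their values were seen. Dcr-2, which cuts double-stranded RNA into small interfering RNAs, had 219.8 and 233 CPM in the libraries labelled GOF and 119 and 129 CPM in wild type (log2 fold 0.87 with an SE of 0.19, adjusted p = 0.0359). CG32702 (Cubn) and CG11592 (Amnionless), the 2 parts of a receptor for protein uptake, were both higher, with 168 and 129 counts in the libraries labelled GOF and 58 and 42 in wild type for CG32702 (adjusted p = 0.0267), and 29 and 13 counts in the libraries labelled GOF and 2 and 0 in wild type for CG11592 (adjusted p = 0.0391). Of the fatty acid synthase genes, CG17374 (FASN3) rose (log2 fold 1.10 with an SE of 0.23, adjusted p = 0.0286) and v(2)k05816 (FASN2) fell (log2 fold -1.64 with an SE of 0.33, adjusted p = 0.0257). scra, the anillin of the cleavage furrow, rose (log2 fold 1.17, adjusted p = 0.0253), and porin, the channel of the outer mitochondrial membrane, fell (log2 fold -0.92, adjusted p = 0.0314).

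Set against the 4 libraries labelled LOF in the same fit, the libraries labelled GOF showed no called gene. The count was 0 of 9252 in edgeR, 507 genes (5.48%) had an unadjusted p under 0.05, 233 higher (2.52%) and 274 lower (2.96%), and the smallest adjusted p was 0.575. DESeq2 called 3 higher and 5 lower. The median half-width of the 95% interval of a log2 fold was 0.654, and 0.473 for the 4950 genes at a mean log2 CPM of 5 or more. Map205 had a log2 fold of -0.13 against LOF, and TBPH had 0.20 (unadjusted p = 0.461 and 0.453). The smallest p was that of CS-2 (log2 fold 1.43, SE 0.27, unadjusted p = 0.000177), whose libraries labelled GOF were above all others. Or47a (log2 fold -1.99, SE 0.40, unadjusted p = 0.000302), Cpr76Bb (log2 fold -3.31, SE 0.69, unadjusted p = 0.000498), CG13071 (log2 fold -2.23, SE 0.46, unadjusted p = 0.000481) and CG1732 (log2 fold -1.27, SE 0.26, unadjusted p = 0.000359) were lower in both libraries labelled GOF than in any other library. Muscle genes had a median of -0.70 against LOF and -1.55 against wild type, and respiratory genes had -0.41 and -1.22. Both comparisons use the same GOF libraries. Without GOF replicate 2, 34 genes were called higher and 75 lower than in LOF, and without GOF replicate 1, 1 and 0.

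**Figure D4:**
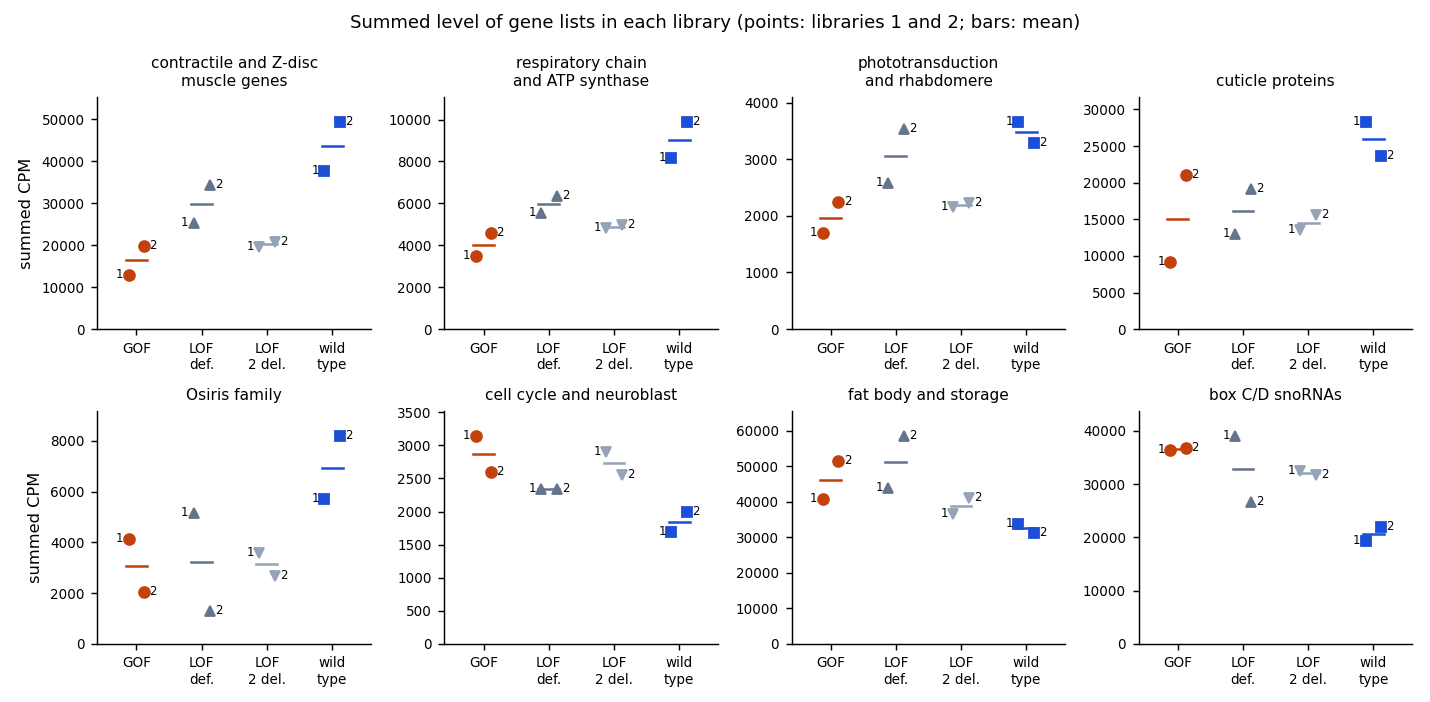
Summed CPM of 8 gene lists in each library, with the libraries labelled GOF left, the LOF genotypes (def., deletion over deficiency; 2 del., 2 deletions) in the middle and wild type right; numbers beside the points are replicates and bars are means. Muscle genes sum to 12933 and 19833 CPM in the libraries labelled GOF, 19667 to 34245 CPM in the libraries labelled LOF and 37628 and 49492 CPM in wild type. For cuticle genes the replicates labelled GOF lie apart, at 9149 and 21037 CPM.

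The replicates labelled GOF differed more than any other pair. Of 5943 genes with at least 50 counts over the pair, 144 were at least 2-fold higher in replicate 1 (2.42%) and 336 at least 2-fold lower (5.65%), 8.08% in all. The same share was 5.31% between the replicates of the deficiency genotype, 1.81% between those of the 2-deletion genotype and 2.18% between those of wild type. Each ratio sets 1 library against 1 library, so it has no replicate check and no test, and intervals below cover counting error only. Spearman's correlation across genes was 0.915 between the replicates labelled GOF, against 0.932, 0.951 and 0.940 for the other pairs. Replicate 2 correlated more closely with the 2-deletion libraries, at 0.940 and 0.949, than with replicate 1. The same held for replicate 1, which was at 0.929 and 0.923 with the 2-deletion libraries.

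Cuticle protein genes were among those that split the replicates. Of 47 with enough counts, 32 were at least 2-fold lower in replicate 1 and 1 higher, against 5.65% and 2.42% of all genes, and their summed level was 9149 and 21037 CPM. Edg84A had 12 counts in replicate 1 and 308 in replicate 2, a ratio of replicate 2 over replicate 1 of 29.3 (95% interval 16.5 to 57.3), while wild type had 3 and 0 counts. Cpr64Aa had 24 counts in replicate 1 and 406 in replicate 2, a ratio of 19.3 (95% interval 12.8 to 30.5), while wild type had 1148 and 1038 counts. Replicate 2 was thus above wild type for Edg84A and below it for Cpr64Aa, and replicate 1 was the lower library for both. For Lcp65Ag2, Lcp1, Cpr30B and Cpr78Cc the ratios of replicate 2 over replicate 1 were 21.0, 23.6, 21.9 and 17.8. Against wild type, cuticle genes had a median log2 fold of -1.26 with replicate 1 alone and -0.24 with replicate 2 alone.

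Tanning genes, which harden and darken the cuticle, leaned the same way, with 7 of 15 at least 2-fold lower in replicate 1 and 0 higher. Over all genes with enough counts the shares were 5.65% lower and 2.42% higher. Named after their values were seen, Ddc, which makes dopamine for tanning and for neurons, had 37 counts in replicate 1 and 285 in replicate 2, against 34 and 69 in wild type, and ple, the gene before it in the pathway, had 129 and 309 counts, against 65 and 72 in wild type. The Osiris genes leaned the other way: of 15 with enough counts, 6 were at least 2-fold higher in replicate 1 and 1 lower, against 2.42% and 5.65% of all genes. Osi1 had 143 counts in replicate 1 and 17 in replicate 2, a ratio of replicate 1 over replicate 2 of 7.38 (95% interval 4.45 to 13), while wild type had 126 and 143 counts. Osi6 had 755 counts in replicate 1 and 164 in replicate 2, a ratio of 4.04 (95% interval 3.41 to 4.81), while wild type had 84 and 81 counts. Replicate 2 was below wild type for Osi1 and above it for Osi6. In the deficiency genotype the Osiris genes also split by replicate, with summed levels of 5159 and 1302 CPM.

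Muscle genes followed the cuticle genes, with 17 of 36 at least 2-fold lower in replicate 1 and 0 higher, against 5.65% and 2.42% of all genes. Mhc had 1078 counts in replicate 1 and 2457 in replicate 2, against 5862 and 7339 in wild type, so both replicates were below wild type and by different amounts. The 3 flight muscle genes Act88F, fln and TpnC4 were all at least 2-fold lower in replicate 1. Replicate 1 had 2011 summed CPM of muscle markers and replicate 2 had 4996. Of 43 respiratory genes 4 passed 2-fold and of 80 cytosolic ribosomal protein genes 1, against 8.08% of all genes.

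Other genes that split the replicates were of mixed kinds. CR40469, a noncoding RNA gene, had 207 counts in replicate 1 and 26 in replicate 2, while wild type had 0 and 2 and the libraries labelled LOF 1 to 20. CG13035 had 123 and 13 counts, against 6 and 3 in wild type, and Cys, a protease inhibitor gene, had 277 and 52, against 117 and 115 in wild type. CG7924, CG7906 and CG34244, of unknown function, had 21 and 495, 10 and 252, and 6 and 105 counts in replicates 1 and 2. Their levels also split the 2-deletion genotype, with 15 and 823, 4 and 313 and 6 and 134 counts, and were 18 and 12, 5 and 8 and 3 and 1 in wild type. The fat body markers were lower in replicate 1, at 21648 summed CPM, than in replicate 2, at 33645, and for neuron markers the values were 461 and 702.

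The genes past 2-fold between the replicates were also placed against the wild-type libraries. They were chosen for that difference, which by itself makes opposite sides of wild type more frequent. The same shares over all genes were not computed, so those below are a description only. Of the 336 genes lower in replicate 1, 32.1% were below both wild-type libraries in both replicates, 31.0% were below them in replicate 1 and above them in replicate 2, and 14.9% were above them in both. Of the 144 higher in replicate 1, 19.4% were above both wild-type libraries in both replicates, 45.1% were above them in replicate 1 and below them in replicate 2, and 11.1% were below them in both. Of the 203 called falls 135 had at least 50 counts over the pair, and 10 of these were at least 2-fold lower in replicate 1 and 2 at least 2-fold higher, against 5.65% and 2.42% of all such genes. Of 80 called rises with as many counts, 2 were at least 2-fold higher in replicate 1 and 0 lower. The labels give both replicates the same age range, and the part of age, sex or dissection in the split was not tested.

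**Figure D5:**
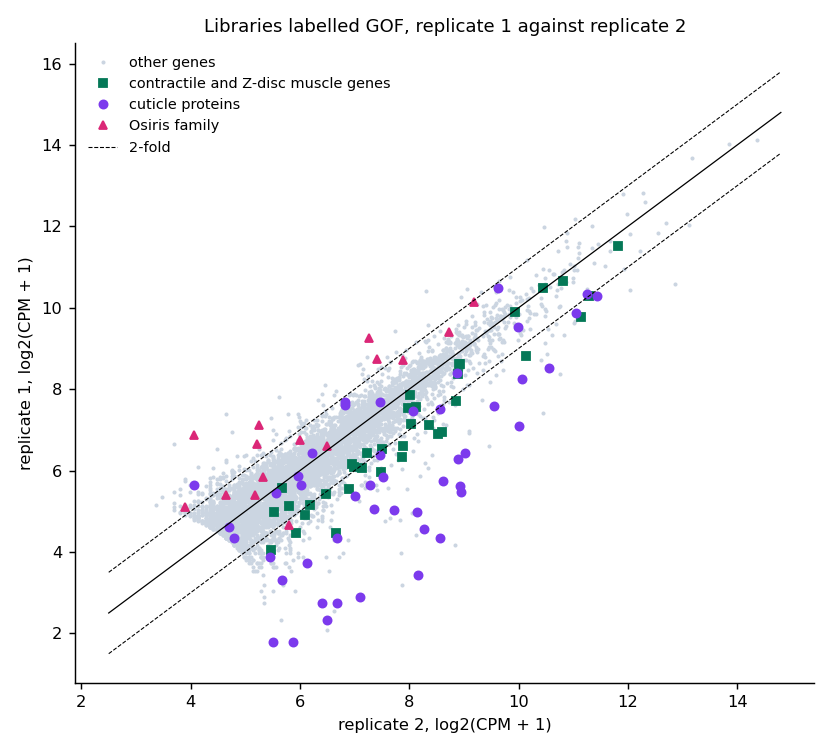
Replicate 1 against replicate 2 of the libraries labelled GOF, as log2 of CPM plus 1, for the 5943 genes with at least 50 counts over the pair; the solid line marks equal levels and the dashed lines a 2-fold difference. Cuticle genes (32 of 47) and muscle genes (17 of 36) lie below the lower dashed line, and 6 of 15 Osiris genes above the upper one. Of all genes shown, 5.65% lie below and 2.42% above.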

How the data were processed

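The deposited files hold whole-number read counts per gene for each of the 8 libraries. Counting with HTSeq and the genome build dm3 are named in the submitters' processing notes; the sources used here give no aligner, annotation or strand setting. Replicates are called biological in the series' design text, but separate cultures are not described, so the p-values reflect library-to-library spread, which may be technical.

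From the counts, edgeR 4.0.16 (R 4.3.3) gave TMM-scaled CPM and quasi-likelihood tests on 4 group means over all 8 libraries, after filterByExpr had kept 9252 of 15141 genes, with Benjamini-Hochberg adjustment over those genes at 0.05. The wild-type and LOF comparisons share the libraries labelled GOF. Scripts were tested on simulated counts. Replicate ratios use CPM and exact (Clopper-Pearson) 95% intervals of how counts split, which cover counting error only.

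Most genes were named by rule: TBPH and linked genes, the largest called changes in each direction, the leading called and most abundant members of each list, and the replicate extremes. Others were picked after their values were seen. The members, the 36 lists and the 19 lists or sublists added later were chosen with earlier results of these data known. Symbols were matched to current names by symbol (9991) or synonym (4384); 548 matched none and 218 several. No sequences or coordinates are given.

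Alternatives were DESeq2 1.42.0 size factors and its Wald test, limma 3.58.1 voom, no filter, at least 50 counts, a replicate block, each library left out, small RNA genes left out, only the 4 libraries compared, and an adjusted p of 0.01. Replicate numbers were not taken as pairs, since no label ties them to a shared source and each group has 2: deviations of same-numbered libraries correlated at -0.0357 between the libraries labelled GOF and wild type, 0.172 with the deficiency and 0.131 with the 2-deletion genotype.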

Additional observations from a re-analysis of the deposited data

Results flagged for a closer look

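For unc-13, which primes synaptic vesicles for release, the libraries labelled GOF averaged 746 CPM and those of the 2-deletion genotype 894 CPM, against 868 CPM in wild type, so the 2 genotypes lay on opposite sides of wild type. That difference between genotypes was not tested. The test of the libraries labelled GOF against all LOF libraries gave a log2 fold of -0.11 (edgeR adjusted p = 0.977).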

How the results depend on the processing

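Against wild type, 85 genes were called higher and 203 lower in the libraries labelled GOF. Leaving out each library in turn gave 3 to 200 higher and 0 to 457 lower. Without the filter 155 were higher, with only the 4 compared libraries 39 were higher and 71 lower, and at an adjusted p of 0.01 6 were higher and 15 lower. Against LOF, 0 genes were called, DESeq2 called 3 higher and 5 lower, and leaving out each library gave 0 to 34 higher and 0 to 75 lower. Between the replicates labelled GOF, 144 and 336 genes passed 2-fold; the numbers were 276 and 604 at a minimum of 20 counts, 49 and 108 at 200 counts, and 22 and 103 at 3-fold. The direction of snoRNA:Psi28S-3436a turned without GOF replicate 1, to a log2 fold of -1.14, and was 0.97 without GOF replicate 2. The cause was not tested. With the replicate block there were 108 higher and 269 lower than wild type and 0 either way against LOF; replicate numbers were not taken as pairs, with correlations of -0.0357 to wild type and 0.131 and 0.172 to the LOF genotypes. Total counts per library, 716027 to 1302855, limit what can be seen of low genes, such as opsins and receptors.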
